A study of Mus musculus with 6 samples.

Results

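The genes described here encode ligands and receptors of the epidermal growth factor (EGF) receptor family, with the receptor inhibitor Errfi1. They were taken by name from the deposited table, which holds 21878 genes, and all 10 were found: the ligand genes Ereg, Areg, Hbegf, Tgfa, Btc and Nrg1, the receptor genes Egfr, Erbb2 and Erbb3, and Errfi1. Ereg was chosen by its measured FPKM in this contrast, in which its difference was among the largest of the series, so its values are given as a description without a test. The other 9 were taken for their function.

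The libraries came from NIH3T3 cells, mouse fibroblasts of an established embryonic line, with a radiation injury in every sample according to the labels. RNA was collected at 72 h from irradiated cells treated with exosomes (3 libraries) and from irradiated cells given phosphate-buffered saline, PBS (3 libraries). The series title calls the exosomes plasma-derived and names cell proliferation and ferroptosis in irradiated wounds. A single cell line was used, the labels give neither radiation dose nor exosome dose, and nothing in them ties the 3 libraries of a condition to different cultures, so p-values measure only the spread between these libraries.

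Ligands of this family are made as membrane-anchored precursors and released by cell-surface proteases. Binding pairs the receptors, switches on their tyrosine kinases and starts the Ras-ERK and PI3K-AKT cascades, and ERK in turn raises transcription of several of the ligands and of feedback inhibitors. EGF, TGF-alpha, amphiregulin and epigen bind the EGF receptor, and heparin-binding EGF, betacellulin and epiregulin bind it and ErbB4. Neuregulins bind ErbB4, and some of them also bind ErbB3. ErbB2 has no known ligand and serves as a partner of the others. In skin wounds these ligands act on keratinocytes and fibroblasts and are known for driving migration and division.

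Expression is given as FPKM (fragments scaled for length and depth), a unit inferred for these files, which allows levels of different genes to be set side by side. An estimated 18800000 to 22000000 reads were counted per library. Of the fibroblast marker genes all 10 were expressed, and their summed level was 6524 to 6724 FPKM with exosomes and 4908 to 5496 with PBS. They did not move together: in the test described below 6 were raised and 2 lowered. For Fn1 and Pdgfrb every exosome value was below every PBS value. Epithelial markers summed to 0.576 to 0.687 FPKM with exosomes and 0.722 to 0.872 with PBS, and Krt5 was listed at 0 in every library. Among the leukocyte markers, Cd3e was listed at 0 throughout, and the list summed to 1.85 to 2.56 FPKM with exosomes and 3.47 to 4.83 with PBS. Csf1r, the receptor gene of a macrophage growth factor, was at 0.382, 0.254 and 0.249 FPKM with exosomes and 1.77, 0.759 and 3.22 with PBS. It was the only marker of this list whose groups did not overlap. Cd68, a macrophage lysosomal protein gene and the other main part of the sum, was at 1.44, 1.91 and 2.08 FPKM with exosomes and 1.54, 2.64 and 1.53 with PBS. Platelet markers summed to 8.30 to 11.1 FPKM with exosomes and 6.35 to 8.90 with PBS, with Gp9 at 0. Of these markers 2 could be tested, and 1 was raised. Erythroid markers summed to 0.699 to 2.02 FPKM with exosomes and 1.03 to 1.65 with PBS, with Alas2 at 0. Endothelial markers summed to 0.190 to 0.248 FPKM with exosomes and 0.343 to 0.357 with PBS. The part of these differences in the results below was not tested.

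The ligand genes Ereg, Hbegf and Nrg1 were lower in exosome-treated cells than in PBS cells. So were the receptor gene Erbb2 and the inhibitor gene Errfi1, while Egfr itself did not pass the test of a difference. Genes that reached 1 FPKM in no fewer than 3 libraries were tested with limma on log2(FPKM + 1), a scale that understates changes of low genes, and called at an adjusted p under 0.05 over all genes tested. Ereg, Hbegf, Nrg1, Egfr, Erbb2 and Errfi1 passed this filter, each with more than 1 FPKM in all 6 libraries, and Areg, Tgfa, Btc and Erbb3 did not. Of the 5 tested genes other than Ereg, 4 were lowered and 1 did not pass, and 0 were raised in limma, at an unadjusted p under 0.05 as well. Of all 10274 tested genes 43.8% were called, 18.4% as lowered. With Ereg left out, the exosome and PBS values did not overlap in 4 of the 5 tested genes, against 55.6% of all tested genes. In those 4 every exosome value lay below every PBS value, as in 23.5% of all tested genes. The genes were gathered with this contrast known, so these counts are a description. In bulk RNA, fewer cells that make a transcript and less of it per cell cannot be told apart.

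**Figure D1:**
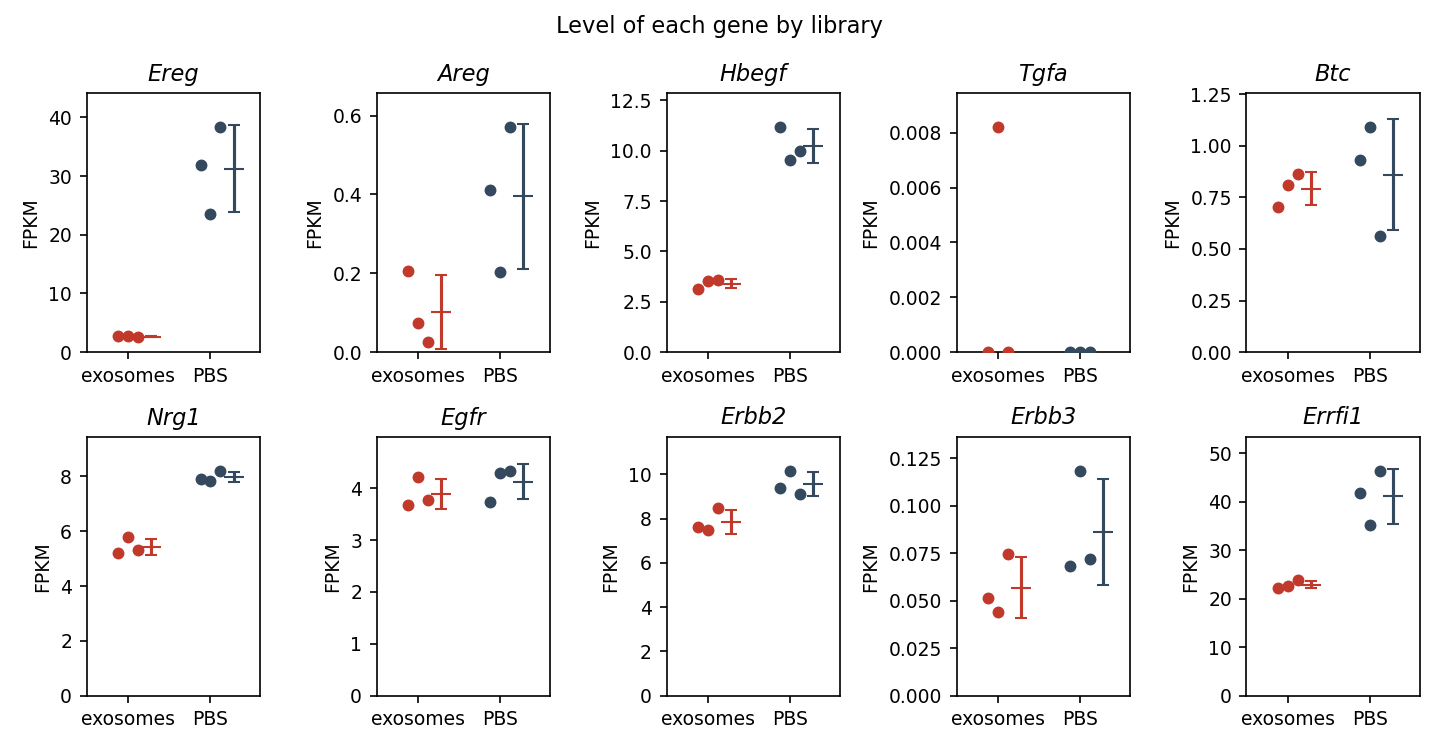
FPKM of each of the 10 genes in every library (points, 3 per group, replicates 1 to 3 from left to right), with mean ± SD beside them except for Tgfa, exosomes left and PBS right; each panel has its own scale from 0. The groups stand wholly apart for Ereg, Hbegf, Nrg1, Erbb2 and Errfi1 and overlap for Areg, Btc, Egfr, Erbb3 and Tgfa.

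Epiregulin, encoded by Ereg (Entrez 13874), is a ligand of the EGF receptor and ErbB4. It was at 2.68, 2.69 and 2.60 FPKM in the exosome libraries and at 31.8, 23.6 and 38.3 FPKM in the PBS libraries. The exosome values lay close together and far below the lowest PBS value, whereas the PBS values were spread widely. The means were 2.66 ± 0.0478 FPKM with exosomes and 31.2 ± 7.40 FPKM with PBS (SD, n = 3 each), so the exosome mean was 0.0850 times the PBS mean. Ranked by mean level among the 10274 tested genes, Ereg stood at place 8860 in exosome-treated cells and at place 1682 in PBS cells. In the authors' deposited table, which rests on counts, its mean normalized count was 253.7 with exosomes and 3007 with PBS, a fold of 0.0844. An antisense gene, Gm19610, overlaps its exons in the GENCODE M21 annotation. The library kit keeps strand, but no source used here says that counting did, so this value is uncertain.

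Hbegf (Entrez 15200) encodes heparin-binding EGF-like growth factor, a ligand that is shed from the membrane and held by heparan sulfate. It was at 3.13, 3.52 and 3.58 FPKM with exosomes and at 11.2, 9.57 and 9.995 FPKM with PBS. Every exosome value was below every PBS value, and the spread within each group was small beside the gap. Hbegf fell by 1.35 ± 0.07 on the log2 scale (SE, limma adjusted p = 1.48e-06), with an exosome mean 0.333 times the PBS mean. The authors' deposited table gives a fold of 0.321 (adjusted p = 5.70e-45).

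Areg (Entrez 11839), which encodes amphiregulin, a ligand specific to the EGF receptor, was close to the lower end of detection. It was listed at 0.206, 0.0745 and 0.0257 FPKM with exosomes and at 0.412, 0.203 and 0.570 FPKM with PBS, so the groups overlapped by a small margin and the gene was left out of the limma test. The authors' group means of normalized counts could be resolved into whole reads, which were 7, 3 and 1 with exosomes and 16, 9 and 20 with PBS. In reads, every exosome library was below every PBS library. Exosome replicate 1 and PBS replicate 2 came nearest, at 7 and 9 reads but 0.206 and 0.203 FPKM, so this separation is uncertain. The authors' deposited table gives a fold of 0.230 (adjusted p = 0.00921).

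Btc (Entrez 12223), the gene of betacellulin, was at 0.706, 0.809 and 0.862 FPKM with exosomes and at 0.931, 1.09 and 0.562 FPKM with PBS. These values came from 48, 63 and 64 reads with exosomes and 65, 75 and 39 reads with PBS. The groups overlapped, with PBS replicate 3 lowest of all, and the authors' deposited table gives a fold of 0.901 (adjusted p = 0.837). Tgfa (Entrez 21802), the gene of transforming growth factor alpha, had 0, 1 and 0 reads with exosomes and 0, 0 and 0 with PBS, so no difference was detectable at this depth.

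Nrg1 (Entrez 211323) encodes neuregulin 1, which signals through ErbB3 and ErbB4. It was at 5.22, 5.78 and 5.31 FPKM with exosomes and at 7.90, 7.84 and 8.21 FPKM with PBS. The groups stood apart with little spread in either. Nrg1 fell by 0.48 ± 0.06 on the log2 scale (limma adjusted p = 0.000179), and the exosome mean was 0.681 times the PBS mean. The authors' deposited table gives a fold of 0.675 (adjusted p = 6.75e-17). Exons of the lincRNA gene Gm26578, on the other strand, overlap Nrg1 in GENCODE M21, with the same uncertainty.

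Among the ligands outside the set, Egf was at 0.293 ± 0.0798 FPKM with exosomes and 0.245 ± 0.0950 with PBS, from 47, 69 and 41 reads and 55, 26 and 35 reads. Epgn, the gene of epigen, had 0, 5 and 1 reads with exosomes and 3, 5 and 4 with PBS. Nrg2 was solved as 0, 0 and 3 reads with exosomes and 0, 3 and 1 with PBS, although the deposited FPKM of exosome replicate 3 is 0, so its reads are uncertain. Nrg3 and Nrg4 were listed at 0 in all 6 libraries. None of the 6 genes in the list of other ligands and the fourth receptor reached the filter.

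Summed over the 7 ligands that bind the EGF receptor (Ereg, Hbegf, Btc, Egf, Areg, Epgn and Tgfa), ligand transcript was 6.96, 7.59 and 7.35 FPKM with exosomes and 44.7, 34.7 and 49.8 FPKM with PBS. The sum was mostly Ereg in PBS cells and was not in exosome-treated cells. Ereg made up 38.5%, 35.4% and 35.4% of it with exosomes and 71.1%, 67.8% and 77.0% with PBS. Hbegf made up 45.0%, 46.4% and 48.7% with exosomes and 25.0%, 27.5% and 20.1% with PBS, so that the leading ligand gene was Hbegf in all 3 exosome libraries and Ereg in all 3 PBS libraries. Without Ereg, the remaining 6 ligands summed to 4.64 ± 0.324 FPKM with exosomes and 11.9 ± 0.934 with PBS. Since Ereg was chosen for its difference, the sums are a description.

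**Figure D2:**
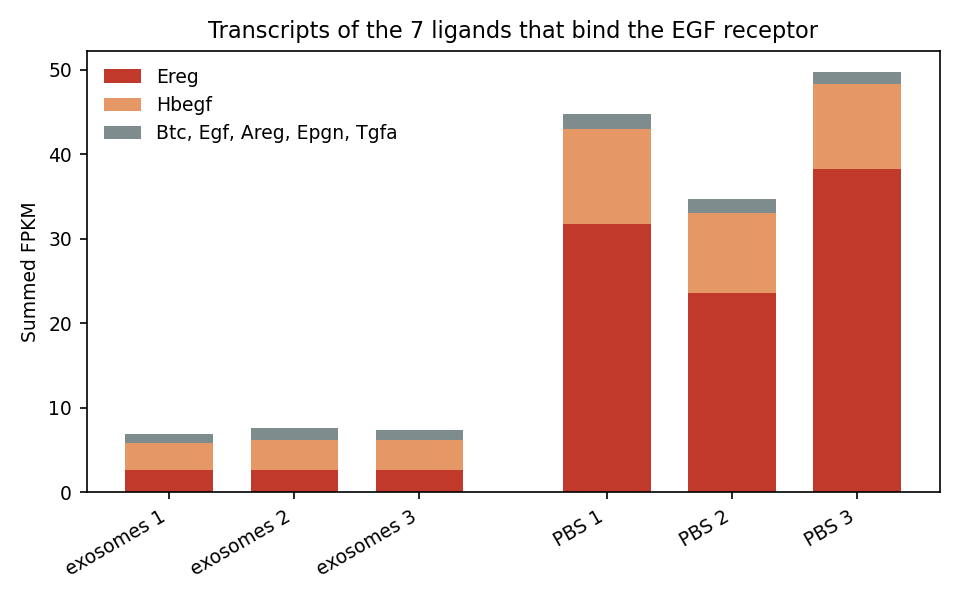
Summed FPKM of the 7 ligand genes whose products bind the EGF receptor, 1 bar per library, split into Ereg, Hbegf and the other 5. The exosome bars reach 6.96 to 7.59 FPKM with Hbegf as the largest piece, and the PBS bars reach 34.7 to 49.8 FPKM with Ereg as the largest piece.

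Egfr (Entrez 13649), the receptor that gives the family its name, was at 3.67, 4.22 and 3.78 FPKM with exosomes and at 3.74, 4.30 and 4.34 FPKM with PBS. The groups overlapped and the values of all 6 libraries lay close together. The log2 change was −0.07 ± 0.07, with a 95% interval of −0.23 to 0.09 (limma adjusted p = 0.4695). The authors' deposited table gives a fold of 0.922 (adjusted p = 0.568). The ratio of Ereg FPKM to Egfr FPKM was 0.729, 0.637 and 0.688 with exosomes and 8.50, 5.47 and 8.84 with PBS.

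Erbb2 (Entrez 13866), the partner receptor without a ligand, was at 7.60, 7.47 and 8.49 FPKM with exosomes and at 9.37, 10.2 and 9.11 FPKM with PBS. The groups did not overlap, and exosome replicate 3 came nearest to the PBS values. Erbb2 fell by 0.25 ± 0.06 on the log2 scale (limma adjusted p = 0.0101), a mean 0.823 times that of PBS cells. The authors' deposited table gives a fold of 0.780 (adjusted p = 3.46e-05). The gene Mien1 lies on the other strand and overlaps exons of Erbb2 in GENCODE M21, so this value too is uncertain.

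Erbb3 (Entrez 13867), which binds neuregulins and has little kinase activity of its own, had 7, 6 and 11 reads with exosomes and 9, 12 and 7 with PBS. Its level was 0.0568 ± 0.0160 FPKM with exosomes and 0.0862 ± 0.0279 FPKM with PBS, and the groups overlapped. Erbb4 had 1, 0 and 2 reads with exosomes and 1, 1 and 0 with PBS. Transcripts of both neuregulin-binding receptors were thus scarce in cells in which Nrg1 reached several FPKM.

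Errfi1 (Entrez 74155), also called Mig6, binds the active kinase domain of EGF receptor family members and inhibits it, and is itself induced by the signal. It was at 22.2, 22.7 and 23.7 FPKM with exosomes and at 41.8, 35.1 and 46.4 FPKM with PBS. The exosome libraries were close to each other and all below the PBS libraries. Errfi1 fell by 0.81 ± 0.09 on the log2 scale (limma adjusted p = 0.000154), and the exosome mean was 0.557 times the PBS mean. The authors' deposited table gives a fold of 0.537 (adjusted p = 1.06e-06). Of the 9 genes other than Ereg, 5 have an adjusted p under 0.05 in the authors' deposited table, and these 5 (Areg, Hbegf, Nrg1, Erbb2 and Errfi1) are lower with exosomes. At that threshold the table calls 25.9% of 15844 genes, 13.5% as lower.

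**Figure D3:**
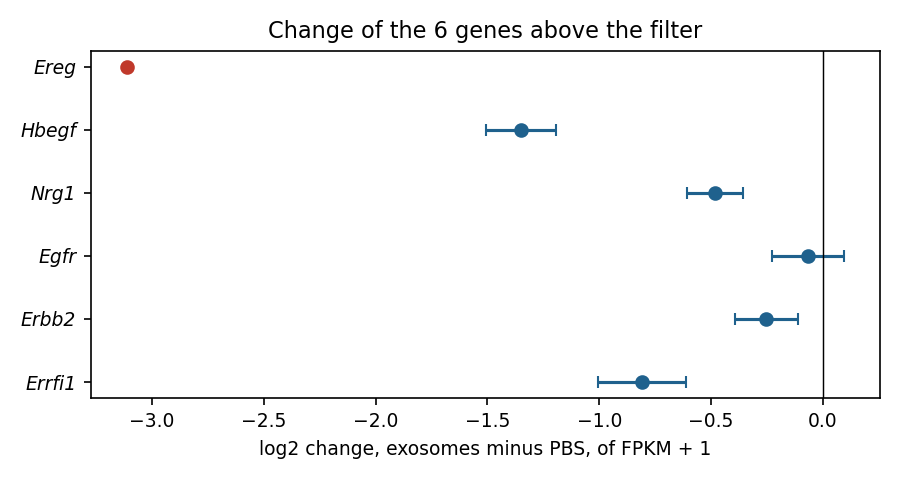
Log2 change of FPKM + 1, exosomes minus PBS, of the 6 genes above the filter (points) with 95% intervals from limma; Ereg, chosen for its difference, is shown as a point alone. Hbegf, Errfi1, Nrg1 and Erbb2 lie below 0 with their intervals, and the interval of Egfr spans 0.

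The order of the levels differed between the groups. In exosome-treated cells it ran Errfi1, Erbb2, Nrg1, Egfr, Hbegf, Ereg, Btc, Areg, Erbb3 and Tgfa, and of these neighbours Areg and Erbb3 overlapped while each of the others stood apart from the next. In PBS cells it ran Errfi1, Ereg, Hbegf, Erbb2, Nrg1, Egfr, Btc, Areg, Erbb3 and Tgfa, and Errfi1 overlapped with Ereg, Hbegf with Erbb2, and Btc with Areg. Ereg thus stood below Erbb2, Nrg1, Egfr and Hbegf in exosome-treated cells and above them all in PBS cells.

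Within the PBS group, replicate 3 was the highest and replicate 2 the lowest library for Ereg, Areg, Nrg1 and Errfi1, and the same held for Csf1r. Hbegf was also lowest in replicate 2 but highest in replicate 1, and Egfr and Erbb2 had other orders. Without PBS replicate 3 the log2 change of Ereg was −2.96, and without PBS replicate 2 it was −3.30. Among tested genes outside the set, those with the closest pattern to Ereg over the 6 libraries on log2(FPKM + 1) were Ptgs2 (r = 0.9994), Csf1, Slc25a37, Ier3 and Mif (r = 0.9984). These correlations mostly carry the gap between the groups. Ptgs2, the inducible cyclooxygenase, was at 25.1, 25.2 and 23.1 FPKM with exosomes and 128, 103 and 140 with PBS. Among the tested genes of the set, r with Ereg was 0.9899 for Hbegf, 0.9865 for Errfi1, 0.9856 for Nrg1, 0.8381 for Erbb2 and 0.4061 for Egfr.

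Ereg, Areg, Epgn and Btc are neighbours on mouse chromosome 5, in the order Mthfd2l, Epgn, Ereg, Areg, Btc and Parm1 among protein-coding genes of the RefSeq annotation of GRCm38.p6. Levels along this stretch were unequal. Mthfd2l, a mitochondrial folate enzyme gene, was at 4.92, 5.28 and 4.14 FPKM with exosomes and 5.77, 5.675 and 5.91 with PBS. Parm1 was at 0.0417, 0 and 0 FPKM with exosomes and 0, 0 and 0 with PBS. In PBS cells Ereg was the only gene of the 6 above 10 FPKM.

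Promoter sequences were available for 6 of the 10 genes (Areg, Tgfa, Btc, Egfr, Erbb2 and Errfi1) in the RefSeq promoter table of GRCm38.p6. The 250 bases before the start were searched on both strands for 4 motifs of factors that growth factor and cyclic AMP signals act on. The cyclic AMP response element (CRE) TGACGTCA was present in 2 of the 6, Areg and Errfi1, and in 1.55% of all 32851 promoter windows of this length. A gene was counted if any of its windows held the motif, whereas the percentages are of single windows, so the units differ. The CRE was also in a window of Epha2, 1 of the 5 ERK output genes in that table. The AP-1 motif TGANTCA, found in 6.75% of windows, the EGR motif GCGTGGGCG, in 0.536%, and the CArG box, in 1.47%, were not in any of the 6. AP-1 and CRE motifs as spelled do not overlap. The windows of Areg and Errfi1 are shown because both hold the same element near the start, first base 61 and 51 bases before it, with the CRE in capitals. They lie on the + strand at chr5:91139349-91139598 and chr4:150854820-150855069. A match describes the letters and not a bound site, and the deposited data hold no measure of binding.
Areg: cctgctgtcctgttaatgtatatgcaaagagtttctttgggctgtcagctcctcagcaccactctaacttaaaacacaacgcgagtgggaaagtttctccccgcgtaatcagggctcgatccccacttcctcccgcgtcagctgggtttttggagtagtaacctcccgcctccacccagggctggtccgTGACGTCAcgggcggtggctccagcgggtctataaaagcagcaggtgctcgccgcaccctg
Errfi1: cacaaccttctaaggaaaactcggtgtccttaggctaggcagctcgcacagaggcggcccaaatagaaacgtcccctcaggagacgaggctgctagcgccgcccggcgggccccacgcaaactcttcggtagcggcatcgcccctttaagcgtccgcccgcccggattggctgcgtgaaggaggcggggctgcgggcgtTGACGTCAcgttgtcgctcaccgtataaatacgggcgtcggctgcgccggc

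Genes that act around the receptors moved in both directions, as tested genes did in general. Of 10 genes that report the activity of the ERK pathway, 9 were lower with exosomes. Over all tested genes the median log2 change was 0.04, with 18.4% lowered and 25.4% raised. All lists in this part were drawn up with earlier results of these data known.

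Of 11 genes of ligand release, 4 were lowered, 2 raised and 5 did not pass, with a median log2 change of 0.03. Adam17, the main sheddase of several of these ligands, named here after its values were seen, was at 18.7, 18.95 and 18.45 FPKM with exosomes and at 18.2, 18.5 and 18.1 FPKM with PBS (limma adjusted p = 0.543). Timp3, an inhibitor of ADAM17, fell to 110 ± 5.74 FPKM with exosomes, against 153 ± 13.5 FPKM with PBS (log2 change −0.47 ± 0.07, limma adjusted p = 0.000536). Rhbdf1, an iRhom that escorts ADAM17 to the surface, fell to 13.4 ± 0.414 FPKM, against 17.3 ± 0.242 FPKM with PBS (limma adjusted p = 0.000406), and Adam9 fell to 44.8 ± 1.09 FPKM, against 56.0 ± 2.50 FPKM with PBS (adjusted p = 0.000739). Frmd8, which stabilises iRhoms, was at 13.9 ± 1.56 FPKM with exosomes and 16.0 ± 0.0949 FPKM with PBS (adjusted p = 0.0472). Adam19 rose to 15.7 ± 1.47 FPKM, against 13.2 ± 0.507 FPKM with PBS (adjusted p = 0.0177), and Adam12 to 3.92 ± 0.387, against 3.15 ± 0.306 (adjusted p = 0.03155). In the authors' deposited table neither rise passed 0.05 (adjusted p = 0.0749 and 0.0838), while the 4 lowered genes did. The calls of Adam12 and Adam19 ended without exosome replicate 2 (adjusted p = 0.0887 and 0.0708) or 3 (0.113 and 0.0611). That of Adam12 also ended without PBS replicate 1 (0.0984) or 3 (0.0846). That of Frmd8 ended without exosome replicate 2 or 3 and without any 1 of the PBS replicates (adjusted p = 0.0762 to 0.138).

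Adaptors, Ras proteins and kinases downstream of the receptors numbered 31, of which 6 were lowered, 8 raised and 17 did not pass (median log2 change 0.04). The 6 lowered genes also have an adjusted p under 0.05 in the authors' deposited table. Of the raised genes, Pik3r1, Pik3r2 and Gab1 do. Araf (0.067), Src (0.0906), Gab2 (0.0957), Nck2 (0.118) and Mapk3 (0.549) do not. Shc1, not called by limma (adjusted p = 0.201), is lower in the authors' deposited table (fold 0.879, adjusted p = 0.00952). The regulatory subunit genes of PI3K rose, Pik3r2 to 32.2 ± 1.34 FPKM, against 25.2 ± 0.878 FPKM in PBS cells (0.34 ± 0.05 on the log2 scale, limma adjusted p = 0.000594), and Pik3r1 by 0.25 ± 0.05 (adjusted p = 0.00381). The catalytic subunit gene Pik3cb fell to 4.34 ± 0.459 FPKM, against 5.80 ± 0.492 FPKM with PBS (adjusted p = 0.00671), and Hras fell to 5.35 ± 0.409 FPKM, against 6.61 ± 0.286 FPKM (adjusted p = 0.00925). The adaptor genes Nck2 and Gab1 had log2 changes of 0.43 ± 0.12 (adjusted p = 0.0222) and 0.24 ± 0.08 (adjusted p = 0.0332). Nck2 lost its call without exosome replicate 2 or 3 or PBS replicate 1 or 3 (adjusted p = 0.0523 to 0.079). Gab1 lost it without exosome replicate 1 or 3 or any 1 of the PBS replicates (adjusted p = 0.057 to 0.122). The count of raised genes was 4 without PBS replicate 1 and 4 without PBS replicate 3. It was 5 without exosome replicate 1 and 5 without exosome replicate 3.

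Of 27 genes of receptor down-regulation and inhibition, 25 were tested, and 9 were lowered, 4 raised and 12 did not pass (median log2 change −0.07). In the authors' deposited table, the lowered Socs4 (adjusted p = 0.0565) and the raised Epn1 (0.364) do not pass 0.05. The other called genes do. Hgs, not called by limma (adjusted p = 0.177), is lower in the authors' deposited table (fold 0.862, adjusted p = 0.0129). Spry4 and Spry2, Sprouty inhibitors of receptor signalling, fell to 2.83 ± 0.249 FPKM, against 7.19 ± 0.0423 FPKM in PBS cells (−1.10 ± 0.06 on the log2 scale, limma adjusted p = 2.92e-06), and to 13.1 ± 0.643 FPKM, against 19.6 ± 1.64 FPKM with PBS (adjusted p = 0.000217). Socs5, which promotes degradation of the EGF receptor, fell to 18.7 ± 0.888 FPKM, against 27.0 ± 0.293 FPKM with PBS (adjusted p = 5.30e-05). Sh3kbp1, which links the ubiquitin ligase CBL to endocytosis, fell to 11.2 ± 0.473 FPKM, against 15.9 ± 1.30 FPKM with PBS (adjusted p = 0.000418), and Znrf1 fell by 0.34 ± 0.06 on the log2 scale (adjusted p = 0.00134). Lrig3, a transmembrane protein of the LRIG family that modulates receptor signalling, rose to 12.4 ± 0.979 FPKM, against 8.77 ± 0.952 FPKM with PBS (adjusted p = 0.00173).

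Of 10 genes used in a published score of ERK pathway activity, 9 were lowered and 1 did not pass in limma, with a median log2 change of −1.01, and 0 were raised, at an unadjusted p under 0.05 as well. The one that did not pass was Epha4, with a log2 change of 0.02 (limma adjusted p = 0.812). The phosphatase genes Dusp6 and Dusp4, whose products act on ERK, fell to 11.3 ± 1.69 FPKM, against 41.6 ± 3.78 FPKM in PBS cells (−1.80 ± 0.10 on the log2 scale, limma adjusted p = 5.09e-06), and to 1.98 ± 0.385 FPKM, against 9.33 ± 1.10 FPKM with PBS (log2 change −1.79 ± 0.10, adjusted p = 4.07e-06). Epha2, an ephrin receptor gene, fell to 7.44 ± 0.529 FPKM, against 17.3 ± 2.47 FPKM with PBS (adjusted p = 3.64e-05). Etv4, an ETS factor gene, fell by 1.03 ± 0.06 and Phlda1 by 0.99 ± 0.06 on the log2 scale. The list shares Spry2 and Spry4 with the list of receptor inhibitors. Lower values of ERK-responsive genes in this contrast were known when the list was drawn up.

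**Figure D4:**
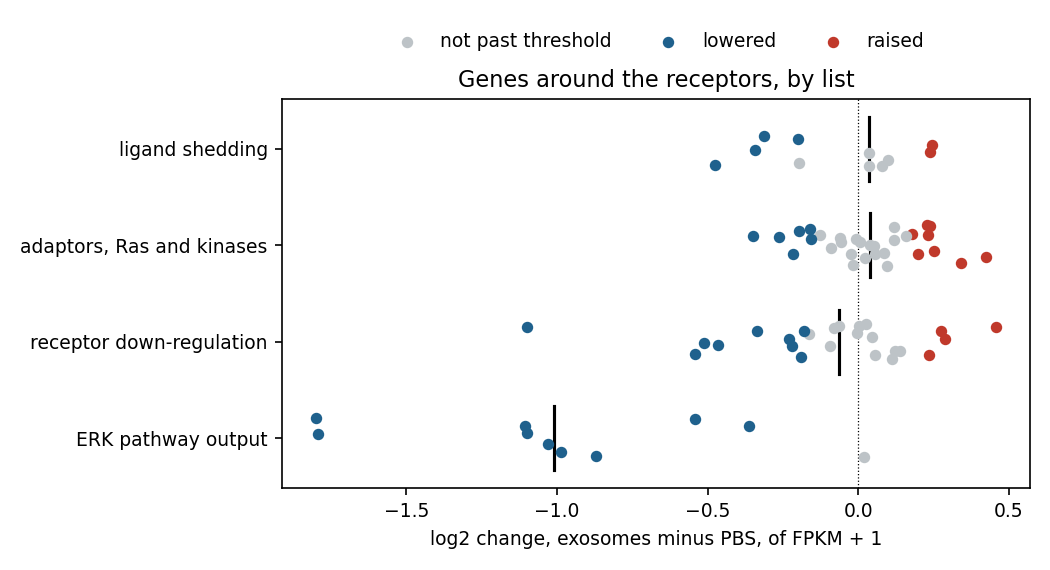
Log2 change of FPKM + 1, exosomes minus PBS, of each tested gene in 4 lists (points, coloured by call; vertical bars are list medians). The first 3 lists spread to both sides of 0 with medians of 0.03, 0.04 and −0.07, and 9 of the 10 ERK output genes lie below 0, with a median of −1.01.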

How the data were processed

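RNA was isolated with the mirVana kit, and TruSeq Stranded mRNA libraries were sequenced as paired ends, per the labels' protocols. Per the submitters' processing notes, the tools were Cufflinks, DESeq, HTSeq, StringTie, HISAT2, Bowtie2, SAMtools and Trimmomatic and the build was mm9, with neither versions nor roles. The authors deposited 1 value per gene and library, read here as FPKM, since the header gives no unit, Cufflinks is among the tools and column sums are unequal. The deposited table also holds, per the file headers, group means of normalized counts (used as a signal of depth), their linear fold (exosomes over PBS), and raw and adjusted p-values.

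Each column was assigned by the number that its sample's label gives, and 0 libraries were duplicates. limma 3.58.1 in R 4.3.3 was fitted to log2(FPKM + 1) of the 10274 genes that reached 1 FPKM in no fewer than 3 libraries, with treatment as its single term, trend and robust settings, two-sided tests and Benjamini-Hochberg adjustment. The procedure was also run on simulated data with independent noise. A far smaller share of genes was changed there than was called here, so that run does not check calls at this share. Size factors and depth were read from the steps of the authors' group means. For group means up to 70, whole reads per library were solved from these steps and the FPKM values, with exactly 1 solution in 98.7% of 3140 genes (exosomes) and 98.9% of 3369 genes (PBS) checked. No count model was fitted to individual libraries. All 10 genes and, from each list, the called genes up to the 6 with the largest change were named, with every ligand and receptor of the family and the 5 genes most like Ereg. Genes and lists were chosen with earlier results of these data known. Gene overlaps came from GENCODE M21 with bedtools 2.31.1. That annotation and the RefSeq tables are for GRCm38 and not for mm9, so their coordinates belong to the sequences shown and not to the deposited values. Alternatives were another pseudocount, other filters, upper quartile scaling, a replicate block, limma without trend and robust estimation, and leaving out each library.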

Additional observations from a re-analysis of the deposited data

How the results depend on the processing

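Hbegf, Nrg1, Erbb2 and Errfi1 kept their direction and their call under every alternative tried, with adjusted p-values up to 0.000169, 0.00149, 0.042 and 0.00247, and Egfr passed under none of the 11 in which it was tested (adjusted p 0.236 to 0.757). The log2 change of Ereg ranged from −3.41 with a pseudocount of 0.25 to −2.96 without PBS replicate 3. With a pseudocount of 0.25 the changes of the low genes were −0.86 for Areg, 0.0155 for Tgfa and −0.13 for Erbb3, against −0.34, 0.0039 and −0.04 with a pseudocount of 1, as the smaller pseudocount shrinks low values less. Btc, which was not tested, had a log2 change of 0.04 without PBS replicate 2 and −0.17 without PBS replicate 3, against −0.04 with all libraries. The raised genes of ligand release numbered 1 without the filter and 1 with at least 5 FPKM, and 0 to 2 when 1 library was left out. Those among adaptors, Ras proteins and kinases numbered 5 without the filter, 5 with at least 5 FPKM, 5 with the replicate block, and 4 to 8 when 1 library was left out. Of the genes named from the lists, Adam12, Adam19, Frmd8, Gab1 and Nck2 lost their call under some alternatives (highest adjusted p 0.113, 0.0708, 0.138, 0.122 and 0.079), and the cause was not tested. Same-numbered libraries did not deviate together (correlations −0.295 to −0.0212, and 0 of 3 exosome libraries correlated best with their own number). With 3 libraries per group this cannot show whether same-numbered libraries were handled together, which the labels do not say. With the replicate block 3914 genes were called, against 4501 without it. Depth limits Areg, Tgfa, Erbb3, Erbb4, Epgn, Nrg2, Nrg3 and Nrg4, at no more than 20 reads in any library.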
